A study of Mus musculus with 6 samples.

Results

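The genes described here mark microglia and other macrophages: C1qa, C1qb, C1qc, Csf1r, Aif1, Cx3cr1, Tyrobp, Ptprc, Cd68 and Mrc1. Their transcripts were followed in ventral midbrains of mice at E14.5. All probes that the platform table assigns to one of these 10 symbols were taken. This gave 13 probes of 9 genes, among 31769 gene probes and 17865 named genes on the array. Ptprc and Csf1r had 3 probes each and the other 7 genes had 1. No probe named Cx3cr1 was found, so this fractalkine receptor gene was not analysed here.

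Mutant tissue was Pitx3-/-, and 3 pools of 3 dissected midbrains each were made. Pitx3 is a homeobox transcription factor of midbrain dopaminergic neurons. The comparison tissue was Pitx3+/+ midbrain, joined into 1 reference RNA from 10 midbrains. Each mutant pool was hybridised on 2 arrays against that reference, once with the mutant in the dye Cy5 and once in Cy3. The labels state neither strain nor sex nor the kind of Pitx3 mutation, and dissected tissue holds vessels, blood and meninges beside neural cells. Replicates are therefore the 3 pools, and the reference contributes no spread of its own. Values below are log2 mutant over reference, averaged over both arrays of a pool, unless another scale is named.

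Microglia are the resident macrophages of the brain. They descend from yolk sac progenitors that enter the neural tube during embryonic life, and their survival depends on the receptor Csf1r. Embryonic microglia clear dying cells, and they are a main source of C1q, which starts the classical complement pathway. In bulk tissue, fewer microglia and less RNA per microglial cell cannot be told apart.

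Arrays had median spot signals of 70.6 to 77.5 scanner units in Cy5, on local backgrounds of 58.7 to 62.0. The Cy3 signals were 46.2 to 50.4, on backgrounds of 38.3 to 41.3. The dopaminergic gene Slc18a2 and the midbrain genes En1 and En2 were above background in both channels on all 6 arrays, as was Th. The Pitx3 probe was above background on no array, so it says nothing about the genotype of the pools. Across all gene probes, pools 1 and 2 correlated at r = 0.59, whereas pool 3 correlated at -0.21 with pool 1 and -0.19 with pool 2. For that reason values without pool 3 are also given. The arrays of opposite dye orientation correlated between -0.60 and -0.17 and those of the same orientation between 0.38 and 0.72.

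The first question was which of these genes could be seen at this stage. A channel of a spot passed if the mean signal lay more than 2 SDs of the local background over that background's mean. By this measure 6 of 9 genes were above background in at least 1 channel on all 6 arrays: C1qa, C1qb, C1qc, Tyrobp, Ptprc and Cd68. All but Cd68 were so in both channels. Aif1 and Csf1r reached the limit on 5 of 6 arrays in at least 1 channel, and Mrc1 on none. The same held for 53.0% of all 17865 genes, counting a gene with any such probe. By probe it held for 6 of 13, or 46.2%, against 43.7% of all gene probes.

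**Figure D1:**
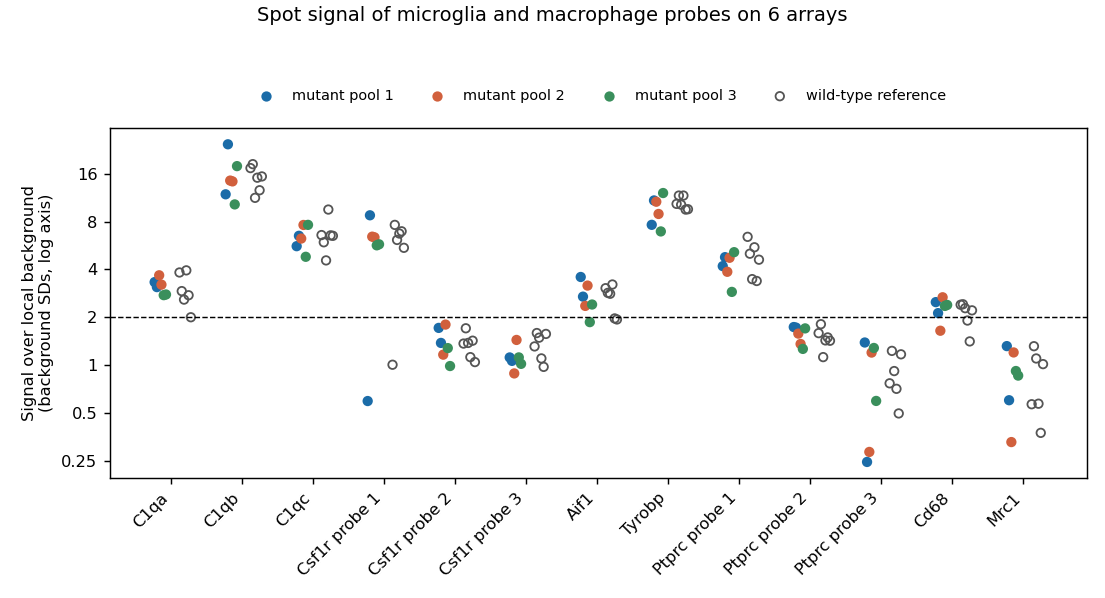
Signal over local background in units of the background SD (log axis) for the 13 probes, with 1 point per array. Filled points are the mutant channel, coloured by pool, open circles the wild-type reference channel, and the dashed line marks 2 SDs. Probes 1, 2 and 3 are MMAA300004245, MMAA300004247 and MMAA300004246 for Csf1r, and MMAA200009499, MMAA300005082 and MMAA300005081 for Ptprc. Mutant and reference points overlap for each probe, and the low Csf1r pair near 1 comes from 1 array of pool 1.

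C1qb, which encodes the B chain of C1q, lay between 10.3 and 24.6 background SDs above background in the mutant channel, with a median of 14.4. In the reference channel it lay between 11.3 and 18.4, with a median of 15.3. C1qc, for the C chain, had medians of 6.39 in the mutant and 6.54 in the reference. C1qa, for the A chain, was closer to the limit, from 2.76 to 3.68 in the mutant and from 2.0 to 3.95 in the reference. The 2 sets of arrays overlapped for all 3 chains.

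Tyrobp encodes the adaptor DAP12, which signals for activating receptors such as Trem2. Its excess ran from 6.95 to 12.1 background SDs in the mutant and from 9.54 to 11.7 in the reference. Ptprc encodes CD45, a phosphatase of leukocytes. Probe MMAA200009499 of this gene had medians of 4.47 in the mutant and 4.82 in the reference. Its other probes, MMAA300005082 and MMAA300005081, stayed under the limit on every array, with highest values of 1.81 and 1.39. Probes of 1 gene thus gave different answers about detection.

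Csf1r encodes the receptor for Csf1 and Il34. One of its 3 probes, MMAA300004245, had medians of 6.07 in the mutant and 6.44 in the reference. On the pool 1 array with the mutant in Cy3 it stood at 0.594 in the mutant and 1.01 in the reference. The signal there, 110.1 in Cy5, was like the 99.2 to 120.5 of the other arrays, but the SD of its local Cy5 background was 36.6 against 6.50 to 8.04 elsewhere. The background around this spot was therefore uneven on that array. Probes MMAA300004247 and MMAA300004246 never reached the limit, with highest values of 1.80 and 1.59.

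Aif1, which encodes the actin-binding protein Iba1, had medians of 2.55 in the mutant and 2.83 in the reference. Cd68, a lysosomal membrane protein gene, had 2.38 and 2.25. Both genes therefore sat at the detection limit in both RNAs. Mrc1 encodes the mannose receptor and marks macrophages of the brain's borders. It had medians of 0.889 and 0.793 and no array above 1.32, so its ratio is one of signals at background.

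The second question was whether the loss of Pitx3 went with a different level of these transcripts. No member probe passed limma's test after Benjamini-Hochberg adjustment over all 31769 probes at a threshold of 0.05. The share of all probes that passed was 0% as well, and the lowest adjusted p among the members was 0.91. The tissue did carry larger differences on the same arrays: Slc18a2, the vesicular monoamine transporter gene, stood at -0.36 ± 0.03 (SD, n = 3), and En2 at 0.79 ± 0.11. Neither passed after adjustment, with a lowest limma adjusted p of 0.19 over all probes. Aldh1a1, a marker of a dopaminergic subset, was above background on all 6 arrays in the reference channel and on none in the mutant channel. No member probe had such a split. All member ratios lay between -0.02 and 0.07.

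At an unadjusted p under 0.05, 2 of the 13 probes were reached, C1qa and C1qb, both with positive ratios. Of all probes, 2.46% were reached in that direction. Ratios were above 0 in all 3 pools for 7 of the 13 probes, where 12.9% of all probes were. Below 0 in all 3 pools there was none, where 12.6% of all probes were. Of the 6 member probes above background on all arrays, 3 were above 0 in every pool (C1qa, C1qb and Cd68), against 12.6% of all probes of that class. Of the 5 member probes above background on no array, 3 were, against 13.2%. These counts join probes of the same gene and cells of the same pools, so they are a description only. With the authors' derived ratios 4 of the 13 were above 0 in every pool and with median centring 5, where 12.6% and 17.4% of all probes were. C1qa and C1qb were among them under both.

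**Figure D2:**
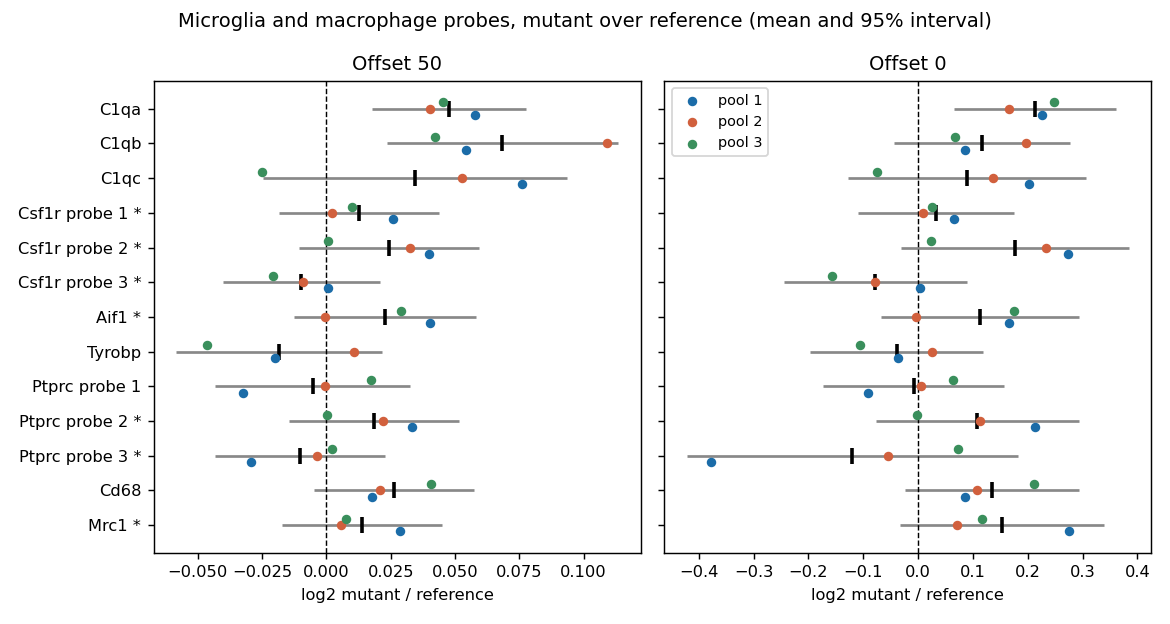
Log2 mutant over reference for the 13 probes, with an offset of 50 in the background correction (left) and an offset of 0 (right, wider axis). Points are pools, black ticks means, and grey lines limma's unadjusted 95% intervals. An asterisk marks probes not above background on all 6 arrays. C1qa and C1qb lie to the right of 0 in all 3 pools, and with the offset of 0 the intervals widen several-fold.

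Among the complement genes, C1qb stood at 0.05 in pool 1, 0.11 in pool 2 and 0.04 in pool 3. Its mean was 0.07 ± 0.04 (SD, n = 3), with an unadjusted p of 0.012 and an adjusted p of 0.91. C1qa had 0.06, 0.04 and 0.05, with a mean of 0.05 ± 0.01 and an unadjusted p of 0.0098. C1qa and C1qb were thus slightly above the reference in each pool. C1qc had 0.08 and 0.05 in pools 1 and 2 and -0.03 in pool 3, a mean of 0.03 ± 0.05. With median centring in place of loess, C1qa was at 0.02 and C1qb at 0.04, both still above 0 in each pool, and C1qc was at 0.003. The C1q genes are neighbours on chromosome 4, and their products assemble into 1 protein.

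The ratios also differed between dye orientations. With the mutant in Cy5, the C1qa ratio was 0.08, 0.09 and 0.09 in pools 1, 2 and 3. With the mutant in Cy3, it was 0.03, -0.01 and -0.0001. C1qb averaged 0.10 with the mutant in Cy5 and 0.03 with it in Cy3. C1qc averaged 0.05 and 0.02. The C1qa difference was thus seen mostly in 1 dye orientation. Each pool held both orientations, so the dye is balanced in the pool means. For the same reason a fit of all 6 arrays with a term for dye must return the same means, 0.05 for C1qa and 0.07 for C1qb. It is therefore no separate check of these ratios. Its limma adjusted p were 0.41 and 0.44.

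**Figure D3:**
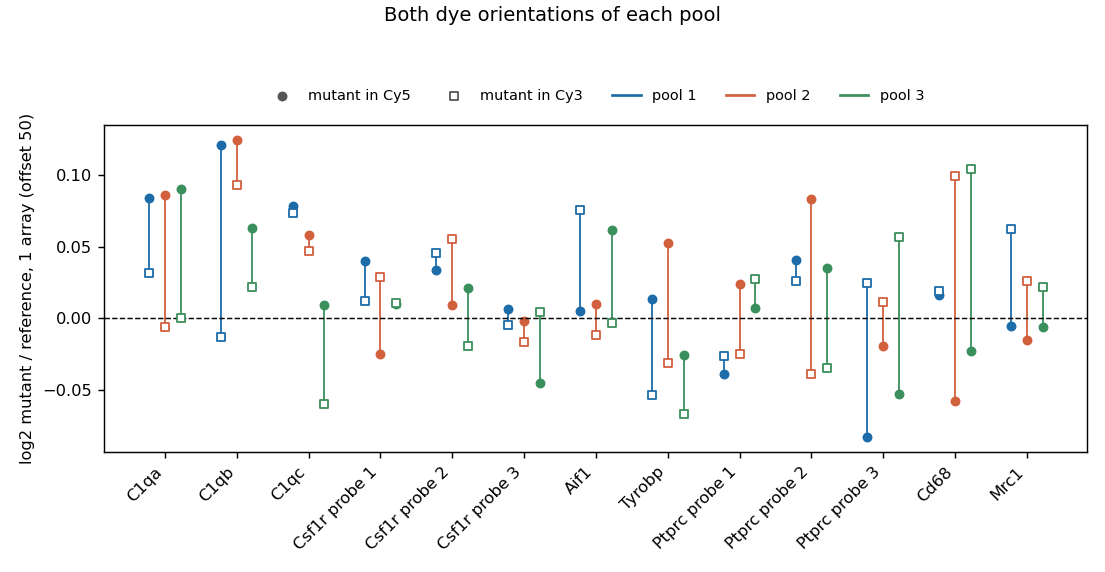
Log2 mutant over reference on each array for the 13 probes, with an offset of 50. Filled circles have the mutant in Cy5, open squares have it in Cy3, and a line joins both arrays of a pool. For C1qa the 3 circles lie between 0.08 and 0.09 while the squares lie between -0.01 and 0.03, and the orientations have opposite mean signs for Tyrobp, Cd68, Mrc1 and both dim Ptprc probes.

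The scanned signals of both RNAs overlapped. After subtraction of the local background, C1qb gave 166.3, 98.9 and 134.1 units in Cy5 for mutant pools 1, 2 and 3. The reference gave 130.3, 111.2 and 98.6 units in Cy5 on the other array of the same pools. In Cy3 the mutant gave 49.2, 54.4 and 40.8 units and the reference 69.5, 42.2 and 53.3. The mutant was higher on average in Cy5 (133.1 against 113.4) and lower in Cy3 (48.1 against 55.0). These values are before normalisation within the array, come from different arrays, and differ in direction between the dyes. For C1qa the averages ran the other way in each dye, 23.1 against 26.4 units in Cy5 and 12.2 against 9.5 in Cy3.

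Of the receptor genes, Csf1r and Ptprc each had 1 probe with signal, and neither passed the test. The Csf1r probe with signal, MMAA300004245, had ratios of 0.03, 0.002 and 0.01, a mean of 0.01 ± 0.01, which turned to -0.01 with median centring. The Ptprc probe with signal, MMAA200009499, had -0.03, -0.0007 and 0.02, a mean of -0.01 ± 0.03. The Mrc1 probe and the other probes of Csf1r and Ptprc, 5 in all, were above background on no array. Their ratios ran from -0.01 to 0.02 with the offset of 50, which holds dim spots near 0, and from -0.12 to 0.18 with an offset of 0. No level or difference can be read from them.

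Signalling and intracellular markers had ratios of the same size. Tyrobp had -0.02, 0.01 and -0.05 in the 3 pools, a mean of -0.02 ± 0.03, with 0.01 where the mutant was in Cy5 and -0.05 where it was in Cy3. It thus had the opposite sign to C1qa and C1qb, and none of these genes passed the test. Aif1 had 0.04, -0.0008 and 0.03, a mean of 0.02 ± 0.02. Cd68 had 0.02, 0.02 and 0.04, a mean of 0.03 ± 0.01, but 0.07 with Cy3-labelled mutant RNA and -0.02 with Cy5-labelled mutant RNA.

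An offset of 50 units was added to every spot, which pulls the ratios of dim genes towards 0. With an offset of 0, C1qa stood at 0.21 ± 0.04, or 1.16-fold, with an unadjusted 95% interval of 1.05 to 1.28. That interval rests on pool means, which average dye orientations that differed. With the mutant in Cy5, C1qa was at 0.33, 0.36 and 0.51 in pools 1, 2 and 3. With the mutant in Cy3, it was at 0.12, -0.02 and -0.008. Its probe was also close to the detection limit, as given above. C1qb was at 1.08-fold (0.97 to 1.21) and C1qc at 1.06-fold (0.915 to 1.24). The Csf1r probe with signal was at 1.02-fold (0.926 to 1.13), Tyrobp at 0.973-fold (0.872 to 1.09) and the Ptprc probe with signal at 0.995-fold (0.887 to 1.12). Cd68 was at 1.10-fold (0.984 to 1.23). None of these passed after adjustment (lowest limma adjusted p = 0.88). The intervals of these 7 probes together span 0.872-fold to 1.28-fold. They rest on 3 pools and do not include the spread of the reference.

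Without pool 3, C1qb stood at 0.08, C1qc at 0.06 and C1qa at 0.05, with limma adjusted p of 0.073, 0.093 and 0.19. In that fit 1543 of all probes passed and no member did. Without pool 1, C1qc fell to 0.01 and Ptprc MMAA200009499 changed sign to 0.01. Without pool 2, C1qb was at 0.05.

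Further microglia and macrophage genes were taken from a list of 30, of which 28 were measured. Which cells their signal came from was not tested. Of these genes 12 were above background on all 6 arrays. The share of all genes was 53.0%, which also stands beside the counts of the lists below. None of the 28 passed the test in either direction. Their median was 0.005, beside 0.02 for the 9 genes above and 0.0002 for all 17865 genes, with 1 probe per gene. Spi1 encodes PU.1, the transcription factor on which microglia depend. It was above background on all arrays and stood at -0.01 ± 0.01. P2ry13, a purine receptor gene, and Gpr34, a further microglial receptor gene, were also above background, at 0.02 ± 0.05 and -0.0006 ± 0.02. So were the genes of cathepsin S (Ctss, 0.005 ± 0.02) and of the Fc receptor Fcgr3 (0.001 ± 0.03). Coro1a, an actin regulator of leukocytes, Slco2b1, a transporter gene, and the lysozyme gene Lyz2 stood at 0.02 ± 0.04, -0.02 ± 0.02 and 0.02 ± 0.03. A dimmer Coro1a probe that was also above background on all 6 arrays, MMAA200005501, had the opposite sign, at -0.03 ± 0.06. P2ry12, Tmem119, Trem2, Sall1 and Irf8 were above background on no array, so no statement on them is possible.

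Of the ligands of microglial receptors, all 10 were measured, 7 were above background on all arrays and none passed. Csf1 and Il34, which feed Csf1r, did not reach the limit on all arrays, with Csf1 on none and Il34 on 1. Cx3cl1, the ligand of the Cx3cr1 receptor, had 0.09, 0.05 and -0.02, a mean of 0.04 ± 0.05. Gas6 bridges dying cells to the receptors Mertk and Axl. It had 0.07, 0.06 and 0.07 in the 3 pools, a mean of 0.06 ± 0.01, with an unadjusted p of 0.0026 and an adjusted p of 0.91. The Gas6 ratio averaged 0.01 with the mutant in Cy5 and 0.11 with it in Cy3. Cd47, a signal against phagocytosis, had -0.19 and -0.21 in pools 1 and 2 and 0.05 in pool 3. Cd200, a neuronal ligand that restrains microglia, had -0.04, 0.13 and -0.22, and the chemokine gene Cxcl12 a mean of 0.01 ± 0.02.

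Other complement genes had 9 of 12 members measured and 4 above background, with a median of -0.006. C2, which acts after C1 in the same pathway, stood at 0.01 ± 0.01, and the C1 inhibitor gene Serping1 at -0.01 ± 0.05. C3 exceeded background on 2 arrays only. The membrane regulators Cd59a and Cr1l stood at -0.02 ± 0.04 and 0.01 ± 0.05.

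Lysosomal and phagocytic genes had 14 of 16 measured and 9 above background, with a median of 0.01. Of the lysosomal membrane genes, Lamp1 had 0.13, 0.11 and -0.03 and Lamp2 had -0.11, -0.01 and 0.004 in the 3 pools. Lamp1 averaged -0.06 with the mutant in Cy5 and 0.20 with it in Cy3. Mertk and Npc2 stood at -0.02 ± 0.04 and -0.01 ± 0.06. Ratios were above 0 for 9 of the 14 genes, where 9000 of all 17865 genes had such a ratio. The cathepsin genes Ctsl (0.05 ± 0.02) and Ctsz (0.05 ± 0.03) had positive ratios at an unadjusted limma p under 0.05. No gene of the list had a negative one at that limit, and 511 of all 17865 genes had a positive one. Ctsl averaged -0.09 with the mutant in Cy5 and 0.19 with it in Cy3, and Ctsz 0.09 and 0.02. Neither passed after adjustment. Border macrophage genes had 8 of 9 measured and a median of -0.007. Lyve1, Cd163 and Pf4, 3 of their defining markers, were above background on no array, like Mrc1. Folr2, F13a1 and Ms4a7 were above it, at -0.02 ± 0.03, -0.004 ± 0.06 and 0.01 ± 0.01.

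Other cell types in the dissected tissue could share these markers, Ptprc and Tyrobp in particular. Neutrophil and monocyte genes had 10 of 12 measured and a median of 0.003. S100a8, S100a9, Mpo, Elane and Ccr2 were above background on no array, whereas Camp and Csf3r were, at -0.004 ± 0.02 and 0.01 ± 0.01. Lymphocyte and mast cell genes had 8 of 10 measured and a median of 0.002, with Cpa3 at 0.01 ± 0.09, Cd3e at -0.001 ± 0.06 and Kit at 0.04 ± 0.01. A second Cpa3 probe, MMAA200000410, was far dimmer (mean log2 intensity 6.08 against 11.3) and stood at 0.02 ± 0.03. The Kit ratio averaged 0.11 with the mutant in Cy5 and -0.02 with it in Cy3. Kit is also expressed by neurons. Erythroid genes had 9 of 10 measured and a median of 0.02. Hba-a1 had 0.20, -0.02 and 0.20 in pools 1, 2 and 3 and Hbb-y had 0.11, 0.22 and -0.05, while Hba-x stood at 0.09 ± 0.10 and Klf1 at -0.02 ± 0.004.

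Endothelial and pericyte genes had 11 of 12 measured and a median of 0.02. Pecam1, an adhesion gene of endothelium that leukocytes also express, had 0.08, 0.06 and 0.03. Pecam1 and Esam (0.03 ± 0.01, above background on 4 arrays) had positive ratios at an unadjusted limma p under 0.05. That was 2 of the 11 genes, beside 2 of the 9 microglia and macrophage genes and 511 of all 17865 genes. Tie1, Flt1 and Cldn5 stood at 0.03 ± 0.06, 0.03 ± 0.06 and 0.02 ± 0.06, and Rgs5 at -0.03 ± 0.07. Meningeal genes had all 10 measured and a median of 0.02, with Ptgds at 0.03 ± 0.03, Col1a2 at 0.02 ± 0.02 and Dcn at 0.02 ± 0.04. No gene of these lists passed the test. The endothelial and meningeal medians, 0.019 and 0.017, were close to the 0.023 of the microglia and macrophage genes, and the part of vessels and meninges in the C1q ratios was not tested.

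**Figure D4:**
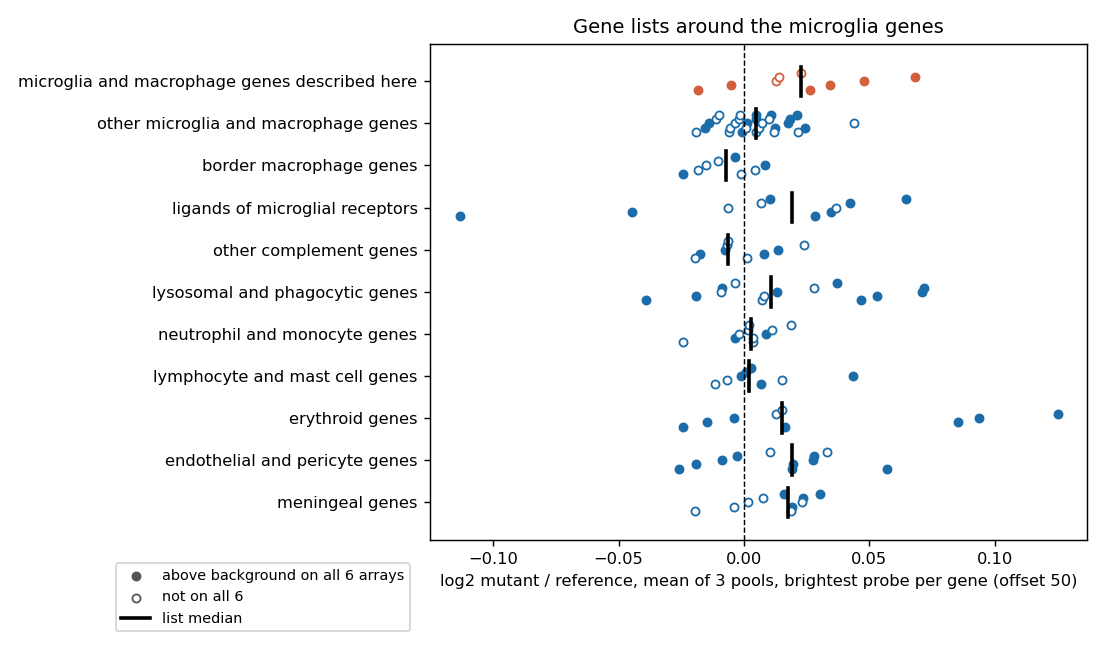
Mean log2 mutant over reference over 3 pools (offset of 50), 1 point per gene at its brightest probe, for the 9 microglia and macrophage genes and 10 other lists. Filled points are above background on all 6 arrays and black bars are list medians. All list medians lie between -0.007 and 0.02, and the points farthest from 0 belong to Cd47 and the globin gene Hba-a1.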

How the data were processed

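RNA of 3 mutant pools and 1 reference was measured on 6 spotted 2-colour arrays. Per the labels, both dye orientations of a pool share their RNA. The deposited scanner files give the intensity of each spot and its local background, from an Agilent scanner and ImaGene per the deposited protocols. The authors' derived files hold intensity after print-tip loess without background subtraction. The deposited series matrix holds log2 ratios equal to these, turned to mutant over reference (largest difference 5e-06). Column medians lay between -0.0022 and 0.0020.

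From the scanner values, limma 3.58.1 in R 4.3.3 applied normexp (offset 50) to mean signal and median background, then loess (span 0.3) with 3223 control spots at weight 0. For each probe, lmFit and eBayes compared the mean of the pools with 0, with 2 residual degrees of freedom and 2.74 from the prior, and p-values were adjusted over 31769 probes, and the steps were tested on simulated data. SDs are over pools. The self-test is not quoted.

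Symbols came from the platform table (26000 of the gene probes) and were updated through RefSeq of GRCm38.p6: 23070 were current, 2865 replaced and 65 kept. The arrays name no build, so no coordinates are given. The 11 further lists held 143 genes, 129 of them measured. Each list used the brightest probe per gene. From each list the 3 brightest genes above background and those with the lowest and the highest ratio were named. Others were named after their values were seen, for their known roles or their unadjusted p. Of the bright midbrain dopaminergic genes, Nr4a2 (-0.13 ± 0.09) is named only here, and En1 (0.69 ± 0.26) was named above without its ratio. Members and lists were chosen with earlier results of these data known. The number of arrays limits precision.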

Additional observations from a re-analysis of the deposited data

Results flagged for a closer look

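The Csf1r probe MMAA300004245 was far from the other arrays in the reference channel of the pool 1 array with the mutant in Cy3. It stood 1.01 background SDs above background there, while the lowest value elsewhere was 5.48. This gap took up 0.674 of the range, beyond Dixon's critical value for 6 arrays. The SD of the local Cy5 background was 36.6 on that array. Of 39 sets of 6 arrays examined, chance would mark about 1 in 20.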

How the results depend on the processing

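No member probe passed under any of the 10 fits run beside the one reported, with a lowest limma adjusted p of 0.073 for C1qb without pool 3. The count over all probes, 0 in the fit reported and 1548 at an unadjusted p under 0.05, was 11 with an intensity trend in the prior. It was 18 when the 6 arrays were fitted with a term for dye and a random block for pool, and lay between 0 and 1543 when 1 pool was left out. The median of the 9 genes, 0.023, was 0.0086 when loess was replaced by median centring and 0.11 with an offset of 0, and ranged from 0.014 to 0.025 when 1 pool was left out. For single probes, 3 signs changed. Csf1r MMAA300004245 was at -0.0058 with median centring, Csf1r MMAA300004246 at 0.0080 in the authors' derived ratios, and Ptprc MMAA200009499 at 0.0083 without pool 1 (-0.017 without pool 3). The count of member probes above 0 in all 3 pools, 7 as reported, was 4 in the authors' derived ratios, 5 with median centring and 6 with an offset of 0 or with no background subtraction, a check chosen after seeing the data. The number of genes above background ranged from 4 at 3 background SDs to 8 at 1 SD. It was 8 with at least 3 arrays required and 5 with both channels required. Signal over background limits what can be said of Aif1, Cd68, Mrc1 and the dim probes of Csf1r and Ptprc.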
